A study of Mus musculus with 8 samples.

Results

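The replication-dependent histone genes were followed in RNA sequencing of mouse pancreatic ductal adenocarcinoma cells that overexpressed 1 of 2 forms of USP21, a deubiquitinating enzyme. Members were the rows whose gene name starts with Hist1h, Hist2h, Hist3h or Hist4h and that held at least 1 read in any library, which gave 66 of the 39179 genes counted. They comprised 6 H1, 18 H2a, 19 H2b, 10 H3 and 13 H4 genes. By cluster, 56 lay in Hist1, 6 in Hist2, 3 in Hist3 and 1 in Hist4. A further 4 rows (Hist2h2aa1, Hist2h2aa2, Hist2h3b and Hist2h3c1) held 0 reads in all libraries and were left out. Of the 66 members, 62 passed the filter on low counts and were tested, and the other 4 (Hist1h1t, Hist1h2aa, Hist1h2ba and Hist2h2bb) held at most 11 reads in any library.

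The 8 libraries came from 4 cell lines of the iKPC mouse model, numbered 1 to 4 and taken as biological replicates, each sequenced with WT-USP21 and with ED-USP21. All groups shared the alleles ROSA_rtTA and p48-Cre, that is, a doxycycline-dependent transactivator and a Cre recombinase driven in the pancreatic lineage, together with a further transgene that is not reported here. The background was labelled FVB/C57Bl6 for lines 1 and 2, and C57BL/6 for the other two. The labels do not spell out ED and say nothing of doxycycline in the cultures. Cells without a construct were not analysed here. Each line supplied 1 library per construct, so a difference within 1 line is a single difference with no replicate.

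Each nucleosome wraps DNA around an octamer of the core histones H2A, H2B, H3 and H4, and the linker histone H1 binds where the DNA enters and leaves it. Most of these proteins come from clustered genes without introns that are transcribed in S phase, when new DNA is packaged. Their mRNAs end in a conserved stem-loop in place of a poly(A) tail. The stem-loop is bound by Slbp and is cut downstream with the help of the U7 small nuclear ribonucleoprotein, so the mRNAs are made and degraded with the rhythm of DNA replication. Total RNA was sequenced, which holds transcripts with and without poly(A). The sources used here do not say whether a selection step followed.

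The stem-loop is shown for 7 members because it is the feature that sets these mRNAs apart and because the H4 genes carry their own version of it. The sequences are from GENCODE vM21 transcripts, sense strand, with the 16 bases of the stem-loop in capitals:
Hist1h1c: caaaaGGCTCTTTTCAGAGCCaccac
Hist1h2ab: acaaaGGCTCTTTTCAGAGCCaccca
Hist2h2ac: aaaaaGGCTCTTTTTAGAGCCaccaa
Hist1h2bb: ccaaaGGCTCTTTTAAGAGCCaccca
Hist1h3b: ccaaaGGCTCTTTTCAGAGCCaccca
Hist1h4d: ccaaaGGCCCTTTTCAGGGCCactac
Hist2h4: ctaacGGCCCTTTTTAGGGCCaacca

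Of the 70 histone rows, 69 could be matched to GENCODE vM21, 62 by gene identifier and 7 by symbol. The stem-loop pattern was found on the sense strand of 46 of these 69 (66.7%), against 10 of 21835 other protein-coding genes (0.0458%). The version in Hist1h1c, Hist1h2ab and Hist1h3b was the most frequent and was found in 26 genes of types H1, H2a, H2b and H3 and in 0 H4 genes. The version in Hist1h4d was found in 7 genes, all H4. By type the pattern was found in 4 of 6 H1, 11 of 20 H2a, 10 of 18 H2b, 9 of 12 H3 and 12 of 13 H4 rows. A missing match says only that these letters are not in the annotated transcript. Nor does a match always lie at its end. The annotated transcript ran on past the stem-loop for 840 bases in Hist1h1c, 770 in Hist1h4d and 1257 in Hist2h4. In the others shown it ran on for 11 (Hist1h2ab) to 57 bases (Hist2h2ac). The poly(A) signal AATAAA lay near the end of the annotated Hist1h1c and Hist2h4 transcripts and not of the others shown. Which ends these cells used was not tested.

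Many members are near-identical copies whose reads align to several places, and the sources used here do not say how such reads were counted. For each tested member, the share of its 50-base stretches that also occur in another annotated gene was computed. The median over the 62 was 51.9%. It was 2.25% in H1, 67.6% in H2a, 44.1% in H2b, 57.2% in H3 and 39.5% in H4. In 8 members over 90% of the stretches were shared, and in 7 under 10%. The rows Hist2h2aa1, Hist2h2aa2, Hist2h3b and Hist2h3c1, which held 0 reads, shared 100% of theirs. Single members of H2a, H2b, H3 and H4 are therefore uncertain, and sums over a type are given first. If reads with several alignments were left out of the counts, the sums lack them too.

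The libraries held 72828184 to 107551210 gene counts each. Epithelial keratins were abundant in all of them (Krt8 from 2128 to 4068 CPM, counts scaled to library totals of equal size by TMM). Of 8 epithelial and ductal markers, 7 were higher with WT-USP21 in line 1 and 1, 2 and 3 in lines 2, 3 and 4, with median log2 differences of 0.47, -0.34, -0.17 and -0.25 and 0 called between the constructs. Their part in the histone differences was not tested. Of 13 markers of immune, endothelial, stromal, acinar and endocrine cells, 4 (Ptf1a, Ins1, Ins2 and Emr1) were at 0 in all libraries, and the summed level was 15.5 to 22.3 CPM with WT-USP21 and 12.6 to 23.7 CPM with ED-USP21. Usp21 itself was lower in the WT-USP21 libraries (147, 944, 539 and 941 CPM in lines 1 to 4) than in the ED-USP21 libraries (1658, 3133, 1662 and 2721 CPM), by -2.10 on the log2 scale (p = 0.0286, exact 2-sided permutation test over 70 arrangements that ignores the pairing by line, the smallest p it can give). Within the 4 lines an exact 2-sided test over 16 arrangements gave p = 0.125, again the smallest possible, and edgeR did not call Usp21 with the line block (adjusted p = 0.205) or without it (adjusted p = 1.0). Every comparison of the constructs below thus goes with the amount of Usp21 as well as its form, and the 2 cannot be told apart.

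Summed over all members, histone reads made up less of the WT-USP21 than of the ED-USP21 library in lines 1 and 2 and more of it in lines 3 and 4. With WT-USP21 the share of gene counts in lines 1 to 4 was 0.394%, 0.688%, 0.633% and 0.831%. With ED-USP21 it was 0.666%, 0.767%, 0.558% and 0.735% in the same order. The WT-USP21 library of line 1 stood below all others, and the ranges of the 2 groups overlapped. The log2 ratios of WT-USP21 over ED-USP21 were -0.76, -0.16, 0.18 and 0.18 in lines 1 to 4, with a mean of -0.14 (SD 0.44, n = 4 lines), and the mean was 0.07 without line 1. In these bulk samples fewer cells in S phase and less histone RNA per cell cannot be told apart.

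**Figure D1:**
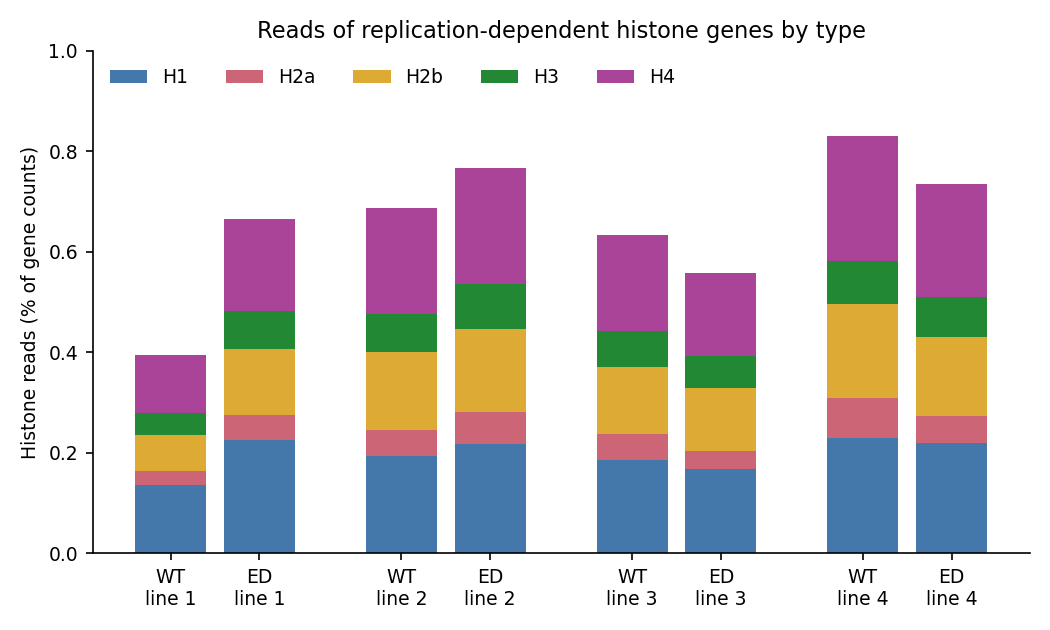
Stacked bars give the reads of H1, H2a, H2b, H3 and H4 genes as a percent of all gene counts in each of the 8 libraries, in order of cell line. The WT-USP21 library of line 1 is lowest at 0.394% and the WT-USP21 library of line 4 highest at 0.831%.

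The 2 libraries of line 1 differed from the other 6 in how the histone reads were divided. In line 1, H1 genes took 34.4% (WT-USP21) and 33.8% (ED-USP21) of all histone reads, against 27.5% to 30.0% in lines 2 to 4. Reads of the Hist2 cluster took 4.11% and 3.24% in line 1, against 6.94% to 7.78% elsewhere. These proportions did not separate the constructs.

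Without regard to the line, edgeR's quasi-likelihood test called 0 of the 62 tested members at an adjusted p under 0.05, and it called 0.0% of the 16192 genes tested. At an unadjusted p under 0.05 there were 3 members and 392 genes. With the cell line as a block, which compares the constructs within lines, 0 members were called, against 0.0247% of all genes. At an unadjusted p under 0.05 this fit gave 2 of the 62 members and 1341 of the 16192 genes. The median log2 difference, WT-USP21 minus ED-USP21, over the tested members was -0.10 without the block and -0.12 with it, while the median over all genes tested was -0.00 in both. Without the WT-USP21 library of line 1 the first became 0.10, and without line 1 the second became 0.10. In 0 of 62 members did the 4 WT-USP21 and 4 ED-USP21 libraries not overlap, against 1.78% of all genes. Without line 1 the blocked test called 4.57% of all genes and 0 members. At an unadjusted p under 0.05 it gave 7 of the 62 members and 2962 of 16326 genes.

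The single members nevertheless went together within a line. In line 1, 60 of the 62 tested members were lower with WT-USP21, against 48.2% of all genes tested, and 2 were higher, against 51.4%, and in line 2, 54 were lower, against 49.3%. In line 3, 54 members were higher with WT-USP21, against 46.5% of all genes, and in line 4, 47 were higher, against 50.7%. The member medians were -0.84, -0.16, 0.17 and 0.26 in lines 1 to 4, beside medians over all genes of 0.01, 0.00, -0.02 and 0.00. Lower in lines 1 and 2 and higher in lines 3 and 4 were 34 members, against 4.54% of all genes. In 4 of 4 lines 1 member was lower, against 7.73%, and 0 were higher, against 9.03%. These counts are signs of single differences, and members share sequence and libraries, so they carry no test.

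**Figure D2:**
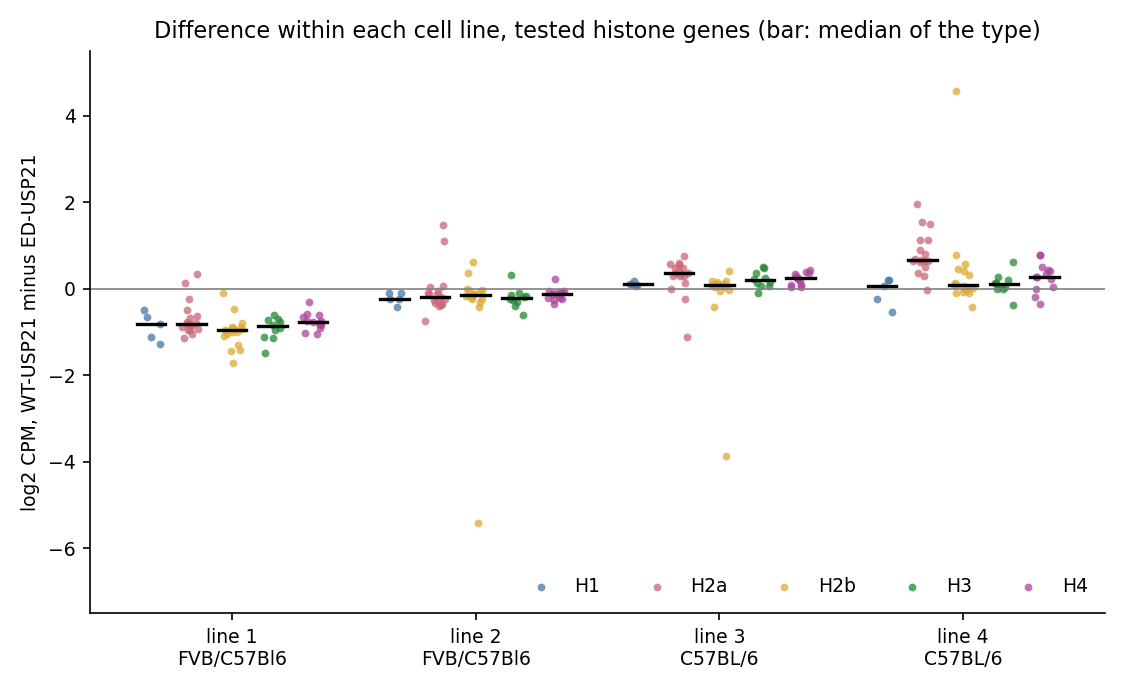
Each point is 1 of the 62 tested histone genes and gives its log2 CPM difference, WT-USP21 minus ED-USP21, within 1 cell line, coloured by histone type with the type median as a black bar. In line 1 the 5 medians lie between -0.77 and -0.96, in line 2 they lie just below 0, and in lines 3 and 4 they lie above 0, highest for H2a at 0.36 and 0.66.

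Whether the construct difference depends on the background label was tested as an interaction in edgeR, with lines as a block. It called 0 members and 0.0% of all genes. At an unadjusted p under 0.05 there were 28 of the 62 members, each with the difference lower in the FVB/C57Bl6 lines, against 2.32% of all genes. By type these were 3 of 5 H1, 10 of 17 H2a, 1 of 17 H2b, 6 of 10 H3 and 8 of 13 H4 genes. The median interaction log2 was -0.56, -1.05, -0.69, -0.70 and -0.77 in the same order, and all 62 members had a negative value. Despite the low count, the median in H2b was thus larger in size than in H1 and close to that in H3. The member with the smallest p was Hist2h2ac (interaction log2 -1.12, SE 0.17, edgeR adjusted p = 0.99). Leaving out any 1 line leaves 1 of the labels to a single line, so only the median over members is given for such fits. It was -0.33 without line 1, -1.09 without line 2, -0.79 without line 3 and -0.73 without line 4. Even in the fit of all lines each label is carried by only 2 lines, and line 1 had the largest difference. Background and line therefore cannot be told apart.

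H1 genes encode the linker histones that bind between nucleosomes and help fold the chromatin fibre. Hist1h1a, which encodes the subtype now called H1.1, stood at 115, 166, 156 and 155 CPM with WT-USP21 in lines 1 to 4 and at 248, 221, 147 and 225 CPM with ED-USP21. It was lower with WT-USP21 in lines 1, 2 and 4 and higher in line 3, and the groups overlapped. Its log2 difference within lines was -0.49 (SE 0.18), which did not pass in edgeR (adjusted p = 0.549, unadjusted p = 0.0337).

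Hist1h1b, which encodes H1.5, stood at 137, 269, 257 and 274 CPM with WT-USP21 and at 332, 319, 246 and 324 CPM with ED-USP21. Within each construct 1 library stood apart, that of line 1 with WT-USP21 and that of line 3 with ED-USP21, both on the low side. Its log2 difference within lines was -0.42 (SE 0.22, edgeR adjusted p = 0.691). Hist1h1c and Hist1h1e, which encode H1.2 and H1.4, stayed in narrower ranges of 444 to 627 CPM and 389 to 612 CPM over the 8 libraries. Hist1h1d, which encodes H1.3, stood at 291 to 645 CPM. In line 1 the 5 tested H1 genes were all lower with WT-USP21, by log2 values of -0.50 (Hist1h1c) to -1.28 (Hist1h1b). In line 3 all 5 were higher, by 0.06 (Hist1h1b) to 0.17 (Hist1h1e).

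H2A and H2B form the dimers at the outer faces of the nucleosome core. Summed H2a reads gave the widest spread of the types between lines, with log2 ratios of -0.76, -0.27, 0.48 and 0.58 in lines 1 to 4 (mean 0.01, SD 0.63, n = 4, and a mean of -0.02 on TMM-scaled CPM). In line 1 Hist1h2al gave 8576 of the 27033 H2a reads with WT-USP21 and 15534 of 52701 with ED-USP21, and without it the ratio of line 1 was -0.81 and those of lines 2 to 4 were -0.27, 0.48 and 0.58. In lines 3 and 4, 14 and 16 of the 17 tested H2a genes were higher with WT-USP21. In line 1, 15 of the 17 were lower.

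Hist1h2ab, a canonical H2A gene, stood at 39.0, 69.1, 74.4 and 109 CPM with WT-USP21 and at 69.3, 72.0, 57.7 and 70.1 CPM with ED-USP21. The WT-USP21 libraries held both its lowest level, in line 1, and its highest, in line 4, and the ED-USP21 libraries lay between. Its log2 difference within lines was 0.03 (SE 0.23, edgeR adjusted p = 0.988). Hist1h2ak, likewise an H2A gene, ran from 52.8 to 113 CPM with WT-USP21 and from 60.7 to 117 CPM with ED-USP21, and differed by -0.11 (SE 0.22, adjusted p = 0.939) on the log2 scale.

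Summed H2b reads gave log2 ratios of -0.90, -0.10, 0.10 and 0.25 (mean -0.16, SD 0.51). The most-read H2b genes followed that pattern in lines 1 and 4. Hist1h2bb stood at 155, 259, 263 and 314 CPM with WT-USP21 and at 285, 266, 247 and 250 CPM with ED-USP21, so that its ED-USP21 level was nearly level across lines while its WT-USP21 level ran from below to above it. Its log2 difference within lines was -0.12 (SE 0.19, edgeR adjusted p = 0.925). Hist1h2bc, Hist1h2be and Hist1h2bg had log2 differences within lines of -0.08, -0.26 and -0.17, with adjusted p from 0.760 to 0.956.

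Many H2a and H2b genes stand head to head, transcribed in opposite directions from 1 shared stretch. In 8 pairs of tested members the RefSeq promoter windows (250 bases before to 50 after the start, GRCm38.p6) overlapped, by 252 to 279 bases. The stretch between the starts is shown for the pairs with the widest gap and with the opposite order in line 4, written on the strand of the H2b gene. Both pairs were chosen after their values were seen. Capitals mark 3 motifs on either strand, which do not overlap here. They are the CCAAT box by its name, the TATA box searched as TATAAA, and the octamer that some factors bind, searched as ATTTGCAT.
Hist1h2an to Hist1h2bp, chr13:21787249-21787487, plus strand: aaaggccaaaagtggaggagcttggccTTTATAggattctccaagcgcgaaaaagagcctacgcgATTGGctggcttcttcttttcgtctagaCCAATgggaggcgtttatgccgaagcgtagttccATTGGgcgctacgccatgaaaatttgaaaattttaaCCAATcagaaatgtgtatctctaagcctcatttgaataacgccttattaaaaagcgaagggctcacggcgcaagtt
Hist1h2ao to Hist1h2bq, chr13:21810200-21810366, minus strand: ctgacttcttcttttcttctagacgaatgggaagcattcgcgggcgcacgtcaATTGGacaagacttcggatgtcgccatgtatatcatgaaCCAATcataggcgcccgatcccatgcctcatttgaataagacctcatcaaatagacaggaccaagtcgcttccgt

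The first stretch holds 4 CCAAT boxes, 1 TATA box and 0 octamers in 239 bases, and the second 2 CCAAT boxes, 0 TATA boxes and 0 octamers in 167 bases. Promoter windows were found for 61 of the 70 histone rows. CCAAT on either strand was in 52 of the 61, comprising all 6 H1, 17 H2a, 16 H2b and 10 H3 windows and 3 of 12 H4 windows, against 37.9% of 27025 RefSeq promoters of the same length. The octamer was in 7 H2a and 6 H2b windows and in 0 windows of the other types, against 1.75% of all promoters. TATAAA was in 35 of the 61, against 14.2%. Windows of a pair overlap, so the same site can be counted in both, and these are not counts of separate sites. The octamer of Hist1h2ae is also that of Hist1h2bg, and that of Hist1h2ah also that of Hist1h2bk. A match describes letters and not a bound site.

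Across the constructs, the partners of most pairs had like differences in lines 1 and 2 and unlike ones in lines 3 and 4. The H2a difference exceeded that of its H2b partner in 7 of 8 pairs in line 1, 3 of 8 in line 2, 8 of 8 in line 3 and 7 of 8 in line 4. The median gap, H2a minus H2b on the log2 scale, was 0.09, -0.04, 0.39 and 0.59 in lines 1 to 4. Medians over all tested members of each type parted likewise in lines 3 and 4. They were -0.81, -0.20, 0.36 and 0.66 in H2a and -0.96, -0.14, 0.09 and 0.08 in H2b. The gap is thus not particular to the pairs. In line 4 Hist1h2ah differed by 1.54 and its partner Hist1h2bk by 0.57, from levels of 9.07 against 3.10 CPM and of 126 against 84.7 CPM. In the same line Hist1h2an differed by 1.13 while its partner Hist1h2bp differed by -0.00, the widest gap of the 8 in the direction of H2a. The exception in line 4 was Hist1h2ao with Hist1h2bq, where the H2b gene differed by 4.57. In line 3 this pair held few reads, 12 and 7 for Hist1h2ao and 20 and 27 for Hist1h2bq with WT-USP21 and ED-USP21. A line has 1 library per construct, so the gaps have no replicate within a line and carry no test.

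**Figure D3:**
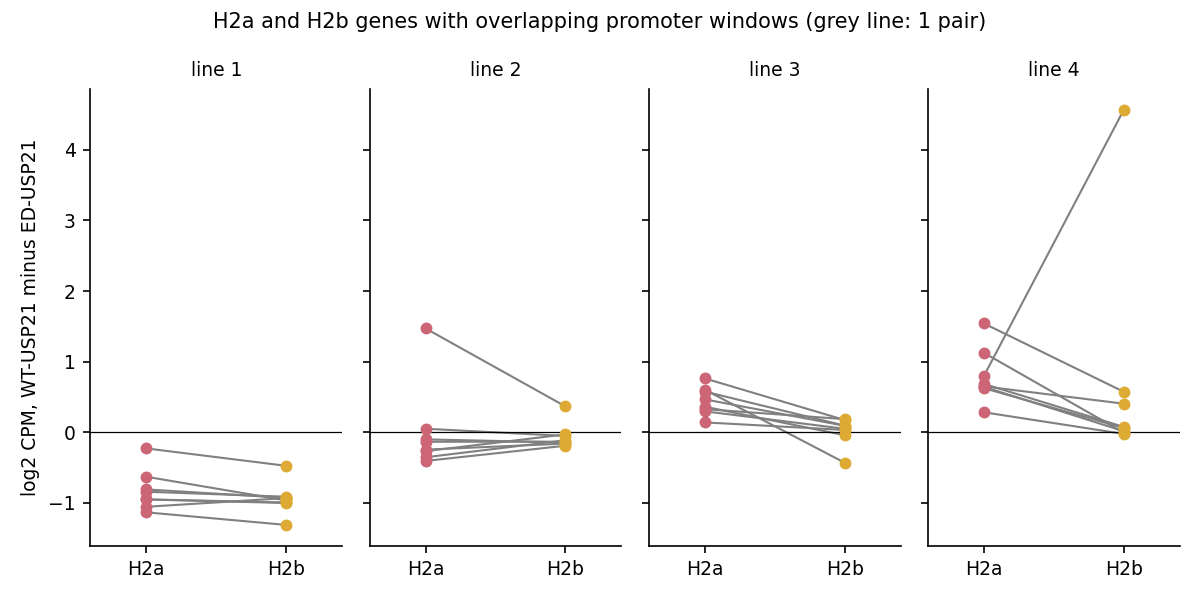
For each cell line, 8 H2a genes (left) and their H2b partners with overlapping promoter windows (right) are joined by a grey line, and the vertical axis gives the log2 CPM difference, WT-USP21 minus ED-USP21. The lines run nearly level in line 1 (median gap 0.09) and mostly downwards from H2a to H2b in lines 3 and 4 (0.39 and 0.59). The steep upward line in line 4 is Hist1h2bq at 4.57.

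The amount of sequence shared with other genes went with part of this pattern, but it also differed between the histone types. With the 62 tested members divided at the median of shared 50-base stretches into 31 and 31, the medians of the less-shared members were -0.84, -0.20, 0.11 and 0.19 in lines 1 to 4. Those of the more-shared members were -0.85, -0.15, 0.25 and 0.57. In lines 1 and 2 the difference was thus much the same in both, and in line 4 it was larger where more sequence was shared. The split also runs between types, with median shares of 2.25% in H1, 67.6% in H2a, 44.1% in H2b, 57.2% in H3 and 39.5% in H4. Type and shared sequence therefore cannot be told apart in it. The part of shared reads in the H2a values was not tested.

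H3 and H4 form the tetramer at the centre of the nucleosome core. Summed H3 reads gave log2 ratios of -0.80, -0.25, 0.20 and 0.10 (mean -0.19, SD 0.45), and 0 of 10 H3 genes passed in either comparison of the constructs. Hist1h3e, the H3 gene with the most reads, stood at 102, 165, 162 and 181 CPM with WT-USP21 and at 169, 199, 155 and 183 CPM with ED-USP21. Its library of line 1 was low with WT-USP21 and not with ED-USP21, and its log2 difference within lines was -0.23 (SE 0.14, edgeR adjusted p = 0.735). Hist1h3d had the smallest p of the H3 genes within lines, at -0.30 on the log2 scale (SE 0.14, adjusted p = 0.661), from -0.62 in lines 1 and 2, -0.10 in line 3 and 0.13 in line 4. Hist1h3b, Hist1h3c and Hist1h3f had log2 differences within lines of -0.25, -0.13 and -0.14.

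Summed H4 reads gave log2 ratios of -0.68, -0.13, 0.19 and 0.15 (mean -0.12, SD 0.40). Hist1h4d, an H4 gene whose stem-loop is shown above, stood at 287, 440, 406 and 457 CPM with WT-USP21 and at 481, 461, 398 and 443 CPM with ED-USP21. Apart from the WT-USP21 library of line 1 its levels lay between 398 and 481 CPM, and its log2 difference within lines was -0.18 (SE 0.14, edgeR adjusted p = 0.822). Hist1h4f gave -0.23 (SE 0.15, adjusted p = 0.760) and Hist1h4h gave -0.04 (SE 0.17, adjusted p = 0.979). The only gene of the Hist4 cluster, Hist4h4, stood at 64.8 to 118 CPM with WT-USP21 and at 69.9 to 130 CPM with ED-USP21, and differed by -0.19 (SE 0.15, adjusted p = 0.817) on the log2 scale.

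The Hist2 cluster on chromosome 3 and the Hist3 cluster on chromosome 11 hold few genes. Hist2h2be, an H2B gene with no 50-base stretch shared with another gene, stood at 8.29, 47.2, 37.5 and 52.3 CPM with WT-USP21 and at 8.93, 30.8, 33.8 and 30.6 CPM with ED-USP21. It was higher with WT-USP21 in lines 2, 3 and 4, by 0.62, 0.15 and 0.77 on the log2 scale, and lower by -0.11 in line 1. Its log2 difference within lines was 0.37 (SE 0.15, edgeR adjusted p = 0.614). In the annotated Hist2h2be transcript the stem-loop pattern was not found, and AATAAA lay near the end. Hist2h4, an H4 gene that shares 1.01% of its stretches, had differences of -0.31, -0.24, 0.09 and -0.35, opposite in sign to those of Hist2h2be in lines 2 and 4, and a log2 difference within lines of -0.20 (SE 0.09, adjusted p = 0.621). Hist2h3c2, an H3 gene at 1.22 to 9.97 CPM, differed by 0.04 within lines (SE 0.37, adjusted p = 0.991). Hist3h2a and Hist3h2ba, an H2A and an H2B gene of the Hist3 cluster, differed by -0.19 and -0.41 (adjusted p = 0.875 and 0.835).

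Among the 4 cell lines, regardless of construct, 9 of the 62 members (14.5%) differed in edgeR's F test, against 24.8% of all genes tested. The share of members was thus below that of all genes. Of these 9, 8 were lowest in line 1 and 1 was highest there. Among lines 2 to 4 alone, 0 members passed, against 0.398% of all genes. At an unadjusted p under 0.05 there were 33 of the 62 members and 2723 of 16326 genes, a larger share of the members than of all genes. The 9 calls rest on line 1 against the others. Of the 8 epithelial and ductal markers 4 also differed among lines, of which Epcam (25.5-fold), Krt8 (1.62-fold) and Krt18 (1.36-fold) were higher and Sox9 (0.457-fold) lower in line 1 than on the mean of lines 2 to 4. Their part in the line differences was not tested.

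**Figure D4:**
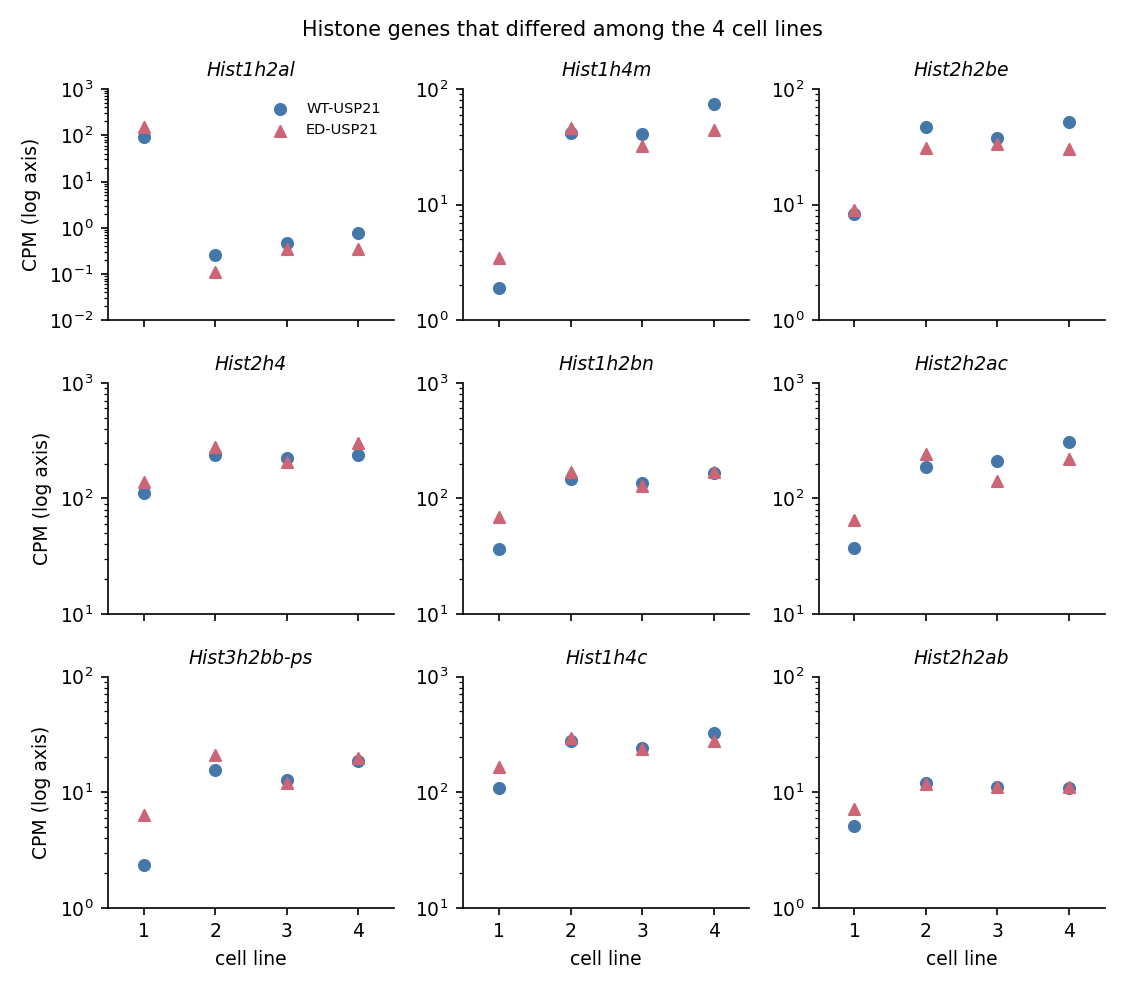
Each panel gives the CPM of 1 histone gene called among the cell lines, on a log axis, in the WT-USP21 (circles) and ED-USP21 (triangles) library of lines 1 to 4. Hist1h2al stands at 93.2 and 149.6 CPM in line 1 and below 1 CPM elsewhere, and the other 8 genes are lowest in line 1.

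Hist1h2al, annotated in GENCODE vM21 as a processed pseudogene of 339 bases, had the smallest p among lines. It stood at 93.2 CPM with WT-USP21 and 149.6 CPM with ED-USP21 in line 1 (8576 and 15534 reads), and at 0.108 to 0.790 CPM in the 6 libraries of lines 2 to 4. Both libraries of line 1 lay far above all others, 315-fold on the mean of the line (edgeR adjusted p = 3.73e-04). It shares 67.6% of its 50-base stretches with other genes, most with Hist2h2aa1 (65.5%), a row with 0 reads in all libraries. Whether its reads came from its own locus was not tested.

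Hist1h4m, an H4 gene, showed the reverse. It stood at 1.90 and 3.44 CPM in line 1 and at 32.4 to 74.8 CPM in lines 2 to 4, a level 17.4-fold higher on the mean of those lines (edgeR adjusted p = 0.00424). Its near-identical copy Hist1h4n stood at 39.3 and 67.0 CPM in line 1 and at 30.2 to 73.0 CPM elsewhere and did not pass (adjusted p = 0.358). Hist1h4m shares 89.8% of its 50-base stretches with Hist1h4n, and their RefSeq promoter windows have a run of 285 identical bases. The 2 copies summed stood at 41.2 and 70.5 CPM in line 1 and at 62.6 to 147.8 CPM elsewhere.

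The other 7 were lower in line 1 by smaller folds. Hist2h2be was 4.49-fold and Hist2h2ac 4.27-fold higher on the mean of lines 2 to 4 than in line 1 (edgeR adjusted p = 0.00547 and 0.0209). Hist2h2ac, an H2A gene, stood at 37.3 and 64.8 CPM in line 1 and at 142 to 308 CPM elsewhere, so line 1 did not overlap with the others. Hist3h2bb-ps, annotated as a processed pseudogene, was 3.83-fold and Hist1h2bn 2.89-fold higher in lines 2 to 4. Hist1h4c (2.02-fold), Hist2h4 (1.97-fold) and Hist2h2ab (1.83-fold) followed, with adjusted p from 0.00714 to 0.0310. Of the 5 tested Hist2 genes, 4 were among the 9. Without line 2, Hist1h4c, Hist2h2ab and Hist3h2bb-ps did not pass (adjusted p = 0.0566, 0.0651 and 0.0568), nor did Hist2h2ab without line 3 (0.0527). At the other end, Hist1h3c had the largest p among lines (edgeR adjusted p = 0.967) and stood at 64.9 to 121 CPM.

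Hist1h2bq and Hist1h2br gave the widest differences within single lines. They are H2B genes at opposite ends of a mirrored block on chromosome 13 that runs Hist1h2bq, Hist1h2ao, Hist1h4m, Hist1h4n, Hist1h2ap, Hist1h2br. Their 300-base promoter windows are identical over all 300 bases, and they share 97.3% and 88.7% of their 50-base stretches with each other. Hist1h2br held 321 and 358 reads in the ED-USP21 libraries of lines 2 and 3 and 7 to 34 reads in the other 6. Hist1h2bq held 805 reads with WT-USP21 in line 4, while its other 7 libraries held 9 to 34. So 1 of the copies was raised in each of 3 libraries, and in 0 libraries were both.

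Hist1h2br was the 1 member with negative differences in 4 of 4 lines, with a log2 difference within lines of -3.24 (SE 0.91), and did not pass in edgeR (adjusted p = 0.401). DESeq2 called it both within lines (log2 -3.02, adjusted p = 0.00409, 2.59% of genes called) and without the block (log2 -4.07, adjusted p = 0.00497, 0.361% of genes called). Hist1h2bq differed by 0.99 within lines (SE 1.01, edgeR adjusted p = 0.869), from -0.47, 0.37, -0.43 and 4.57 in lines 1 to 4. The 2 copies summed differed by -1.19, -3.46, -3.20 and 4.27 in lines 1 to 4, so their sum did not go 1 way either. Hist1h2ao and Hist1h2ap, H2A genes inside the block, held 5 to 53 and 4 to 16 reads and did not pass (edgeR adjusted p = 0.705 and 0.873).

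Genes that act with the histone genes were taken from lists. Genes of S phase and DNA replication (26 tested) had medians of -0.93, -0.03, 0.00 and -0.06 in lines 1 to 4, and genes of G2 and mitosis (12 tested) of -0.72, -0.03, 0.00 and -0.03. The sliding clamp gene Pcna stood at 116, 233, 241 and 236 CPM with WT-USP21 and at 223, 240, 260 and 247 CPM with ED-USP21. In line 1 these lists and the histone genes were low with WT-USP21 by similar amounts, while in lines 2 to 4 the list medians lay near 0 and the histone medians at -0.16, 0.17 and 0.26. The summed level of the S phase genes was 2015 CPM with WT-USP21 in line 1, and the other 7 libraries lay at 3815 to 4229 CPM. The part of cell cycle genes in the histone difference was not tested. In each of these lists 0 genes were called between the constructs, with or without the block, against 0.0% and 0.0247% of all genes.

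**Figure D5:**
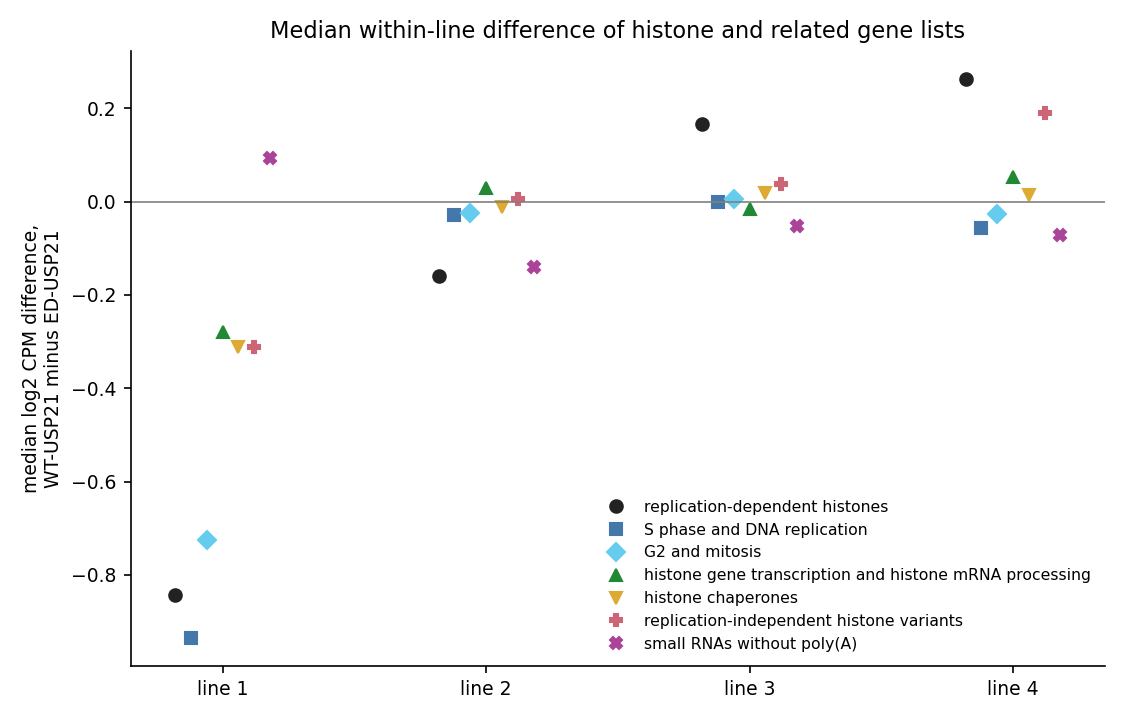
Points give the median log2 CPM difference, WT-USP21 minus ED-USP21, within each cell line for the tested histone genes and 6 lists of related genes. In line 1 the histone (-0.84), S phase (-0.93) and G2 and mitosis (-0.72) medians are the lowest, and in lines 3 and 4 the histone medians (0.17 and 0.26) lie above the other lists.

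Genes that transcribe histone genes or process their mRNAs (21 tested) had medians of -0.28, 0.03, -0.02 and 0.05 in lines 1 to 4. Slbp, which binds the stem-loop, stood at 37.9, 77.8, 73.4 and 83.3 CPM with WT-USP21 and at 60.7, 80.6, 76.8 and 77.2 CPM with ED-USP21, low in line 1 and lowest with WT-USP21. Npat, the coactivator of histone gene transcription, differed by -0.38, -0.18, 0.17 and 0.02 in lines 1 to 4 (edgeR adjusted p = 0.873 within lines). Among the lines 5 of the 21 passed, a share close to the 24.8% of all genes tested. They were Casp8ap2, a protein of the histone locus body, and Zfp473, a zinc finger protein of the U7 complex, both lowest in line 1, and Eri1, Upf1 and Cpsf2, which act in decay or cleavage of RNA, all highest there.

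Histone chaperones (17 tested) had medians of -0.31, -0.01, 0.02 and 0.02. Tonsl, which binds newly made histones, differed by negative values in 4 of 4 lines (-0.82, -0.21, -0.22 and -0.08) and did not pass (edgeR adjusted p = 0.564). Replication-independent histone variants (11 tested), whose mRNAs are mostly polyadenylated, had medians of -0.31, 0.01, 0.04 and 0.19. H2afx, the H2A.X gene, whose transcripts can end in the stem-loop, stood at 56.2, 169, 168 and 298 CPM with WT-USP21 and at 97.4, 190, 131 and 165 CPM with ED-USP21. Its differences of -0.79, -0.17, 0.36 and 0.86 had the signs of the H2a sums in each line, and it did not pass (adjusted p = 0.977). H2afz, H3f3a and H3f3b, the genes of H2A.Z and H3.3, differed by at most 0.31 in size within any line. The linker variant H1f0 differed among lines (adjusted p = 0.00723), highest in line 1 at 863 and 1009 CPM against 530 to 718 CPM.

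Small RNAs without poly(A) tails served as a comparison. Rn7sk, the RNA that restrains transcription elongation, stood at 9065 to 12297 CPM, and its differences were -0.09, -0.14, -0.19 and 0.00 in lines 1 to 4. The 10 tested small RNAs had medians of 0.09, -0.14, -0.05 and -0.07, with 0 called between the constructs. The Y RNA Rny1 differed by positive values in 4 of 4 lines (0.25, 0.73, 0.11 and 0.72) and did not pass (edgeR adjusted p = 0.393). Rnu7, the RNA of the U7 particle, was at 0 reads in all libraries.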

How the data were processed

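Deposited values were whole-number counts of reads per gene, 1 table per library, made by the authors and not normalised. The submitters' processing notes name build mm9 and the tools HTSeq, STAR, TopHat, CASAVA and Cufflinks, without roles. Versions, strand and the handling of reads with several alignments are not stated there. Reads in no gene (11.4% to 20.6%) stayed out of library sizes. Counts were tested with edgeR 4.0.16 in R 4.3.3 (TMM scaling, filterByExpr, quasi-likelihood test, Benjamini-Hochberg adjustment over 16192 genes, threshold 0.05), and standard errors are the size of the log2 difference divided by the root of its F statistic. The first fit had no covariate, and later ones had the line as a block, the line terms, and construct by background. CPM use TMM totals, and log2 CPM a prior count of 2. The line numbers pair libraries because the labels give both libraries of a number to the same cell line. DESeq2 1.42.0 and limma 3.58.1 (limma-trend) were alternatives. The edgeR fits of the constructs, without and with the block, were tried on simulated counts. Those had independent genes, no shared reads and changes alike in all lines, so they do not cover these features of the members. P-values of the fits set a difference against the spread between these libraries that the fitted terms leave. With 1 library per construct and line, they do not use a spread between replicates of a line. Stem-loops and shared stretches are from GENCODE vM21, and promoters are from RefSeq (GRCm38.p6).

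The members and lists were chosen with earlier results of these data known. Named members are, per type, the 4 tested genes with most CPM, the tested Hist2, Hist3 and Hist4 genes, every called member, up to 4 per direction with the smallest p within lines, and the extremes among lines. From other lists, genes with the smallest p within lines and a preset few were taken. Genes outside this rule (Hist1h4n, Hist1h2ah, Hist1h2an and their partners, Krt18, Upf1, Cpsf2 and Eri1) were chosen after their values were seen.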

Additional observations from a re-analysis of the deposited data

Results flagged for a closer look

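In 13 of 92 groups of 4 libraries examined, 1 library stood apart from the other 3 by Dixon's gap ratio. Chance gives about 1 in 20, or 4.6, for independent groups that were not picked from the same data. These groups were the named members and the sums. They share libraries, and some members were named for calls among lines or small p, so 13 beside 4.6 is not a test. The WT-USP21 library of line 1 accounted for 6 of these. It was the low one for Hist1h1b (137 CPM against 257 to 274 in the other 3), Hist1h3b (55.0 against 98.3 to 106), Hist1h4f (142 against 249 to 258), Hist2h2ab (5.12 against 10.8 to 11.9) and Hist2h4 (112 against 222 to 237), and the high one for Hist1h2al (93.2 against 0.258 to 0.790). The ED-USP21 library of line 1 was low for Hist2h2ab (7.21 against 11.1 to 11.7) and Hist2h2be (8.93 against 30.6 to 33.8) and high for Hist1h2al (149.6 against 0.108 to 0.348). The ED-USP21 library of line 3 was low for Hist1h1b (246 against 319 to 332) and for the summed H1 reads (0.167% of gene counts against 0.218% to 0.225%). The WT-USP21 library of line 4 was high for Hist1h2bq (9.35 against 0.0978 to 0.337), and the ED-USP21 library of line 2 was high for Hist1h2ao (0.176 against 0.0674 to 0.0772).

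The summed reads of all members and of each type had negative log2 ratios of WT-USP21 over ED-USP21 in both FVB/C57Bl6 lines and positive ones in both C57BL/6 lines. The mean of lines 1 and 2 minus the mean of lines 3 and 4 was -0.64 for all members, -0.56 for H1, -1.04 for H2a, -0.67 for H2b, -0.67 for H3 and -0.57 for H4. For these sums the difference was not tested, and the test of single members in the report called 0 of 62.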

How the results depend on the processing

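Between the constructs, edgeR called 0 members with either scaling, at each filter on low counts and without any library or line, and limma-trend called 0, while DESeq2 called 1 (Hist1h2br) without the line term and 1 within lines. With the replicate block of cell lines the median member difference was -0.12, against -0.10 without it, and the block changed no call of a member. Leaving out 1 library moved the unblocked median between -0.27 and 0.10, and leaving out 1 line moved the blocked median between -0.25 and 0.10. Among named members, 15 of 36 changed sign within lines without line 1, and for none of those did the value pass the threshold. The mean log2 ratio of all histone reads ran from -0.25 to 0.07 over the omissions of 1 line. Differences among lines gave 9 calls, 9 with DESeq2 size factors, 11 at a mean of at least 5 CPM, and 0 to 10 without 1 line, with 0 where line 1 was left out. The interaction median ran from -1.09 to -0.33 over such omissions, which were chosen after seeing the data and left 1 label to a single line. Limits are 1 library per construct and line, unequal Usp21 levels, and sequence shared between copies. Members with few reads, such as Hist1h2ap, are a further limit, as small differences were not detectable for them at this depth.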
